A study of Mus musculus with 10 samples.

Results

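A set of 8 genes that encode transcription factors and a hormone receptor of Sertoli cells was described: Sox9, Sox8, Wt1, Gata1, Gata4, Fshr, Rhox5 and Nr0b1. They were chosen by name, 8 of the 28125 genes with an RNA value and of the 30670 genes with an accessibility value, and all 8 were present in both tables. Each gene had a single pooled value in each of 13 testis cell populations, and the populations labelled Sertoli (soma_Sertoli) and soma_CKO were compared. Sertoli cells are the somatic cells of the seminiferous tubule that surround and feed the germ cells. SOX9 and SOX8 are related HMG-box factors that establish and hold Sertoli cell identity, and WT1, a zinc finger protein, acts in the same program. GATA4 and GATA1 are zinc finger factors that bind GATA motifs. NR0B1 (DAX1) is a nuclear receptor that mostly represses transcription, and RHOX5 is a homeobox factor of a gene cluster on the X chromosome. FSHR is the receptor through which follicle-stimulating hormone of the pituitary raises cyclic AMP in Sertoli cells.

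The study examined NFYA, a subunit of the CCAAT-binding factor NF-Y, in the mouse testis, with single-nucleus RNA-seq and ATAC-seq of whole testes. There were 10 samples, 5 per assay, with 1 library for each condition: wild-type testes at 11, 17 and 25 days postpartum (dpp), and at 8 weeks Nfya-CKO testes and Stra8-Cre Cre/+ controls. In Nfya-CKO mice, floxed Nfya is deleted by Cre under the Stra8 promoter, which is active in germ cells, so the Sertoli cells of these testes are not the targeted cells. All mice were C57BL/6J by the study's methods. With 1 library per condition and pooled population values there was no replicate check, so no test across samples exists. Differences are given by size, and their errors are unknown.

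The RNA libraries held 30227701 to 64967271 UMIs, with a median of 1446.5 to 7603 UMIs per cell. In the RNA cell table, 5030 of 39674 barcodes (12.7%) occurred in more than 1 library, against 0.286% in the ATAC table. Nfya itself stood at 0.456 UMIs per 10000 in undifferentiated spermatogonia (undiff. SpG), 0.360 in Sertoli and 1.11 in SpG Nfya-CKO, where it was highest of all populations. These values do not separate the deleted exons from the rest of the gene and so do not check the genotype, and the sample is called the library labelled Nfya-CKO.

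The populations under comparison came from different mice. Of the 3265 Sertoli cells, 2866 (87.8%, exact Clopper-Pearson 95% interval 86.6 to 88.9, counting error only) were from 11 dpp and 382 (11.7%) from 17 dpp, and 0 were from the library labelled Nfya-CKO (upper 95% limit 0.113%). Of the 5883 soma_CKO cells, 4633 (78.8%, 77.7 to 79.8) were from that library, and the other four libraries gave 2.41% to 8.72% each. The name soma_CKO thus covers cells of every condition. The median cell held 10904 UMIs in Sertoli and 1525 in soma_CKO. Age, genotype, cell mix and depth cannot be told apart in this comparison.

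**Figure D1:**
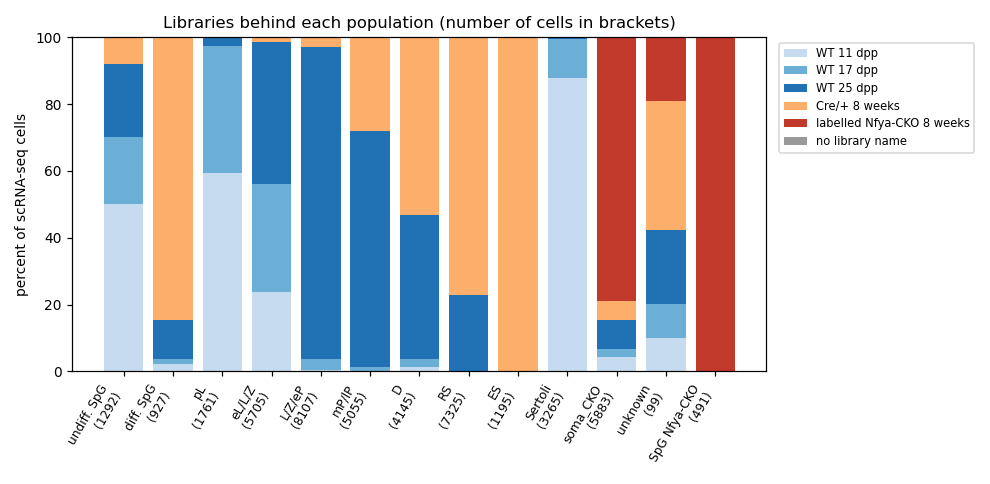
Library of origin of the cells in each population, as a percent of the cells of that population (y axis, 0 to 100%), one bar per population (x axis) and one colour per RNA library. Sertoli cells are 87.8% from 11 dpp, and soma_CKO cells are 78.8% from the library labelled Nfya-CKO.

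The label soma_CKO was set against markers of other testis cells. The 6 Leydig markers (Cyp17a1, Cyp11a1, Hsd3b1, Hsd3b6, Star and Insl3, of steroid-producing interstitial cells) summed to 226 UMIs per 10000 in soma_CKO and to 0.372 in Sertoli, and 6 of 6 were higher in soma_CKO by at least 2-fold. Stromal markers summed to 20.8 against 0.623, with Lum listed at 0 in Sertoli and the remaining markers of these lists above 0, peritubular markers to 5.22 against 0.307, endothelial markers to 1.67 against 0.184 and macrophage markers to 1.09 against 0.360. The 5 spermatid markers were also all higher by at least 2-fold, with a sum of 5.37 against 0.0129. The 18 Sertoli markers outside the 8 genes summed to 213 in soma_CKO and 168 in Sertoli. Clu (91.5 in soma_CKO, 34.1 in Sertoli) and Ptgds (52.3 and 0.0815) led the soma_CKO sum. By at least 2-fold, 9 of the 18 were lower in soma_CKO and 4 higher. Of all populations, soma_CKO had the highest value for 5 of 5 stromal, 4 of 5 peritubular and 5 of 6 macrophage markers. It was highest for 0 of 5 spermatid and 0 of 5 endothelial markers. By its markers soma_CKO is therefore a mix that holds Sertoli, Leydig, stromal, peritubular and spermatid RNA, and it is called by its label. In the ATAC table, 1039 of 1942 soma_CKO cells (53.5%) bore the Sertoli name by accessibility and 729 (37.5%) the soma_CKO name, whereas 98.9% of Sertoli cells kept theirs. The libraries differed in this. In the library labelled Nfya-CKO, 855 of 1217 soma_CKO cells (70.3%) bore the Sertoli name and 28.8% the soma_CKO name. In the other libraries 20.5% to 31.8% bore the Sertoli name and 40.3% to 66.8% the soma_CKO name. In pooled values, fewer Sertoli cells in a population and less RNA per Sertoli cell cannot be told apart.

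The genes lie on 5 chromosomes. In the RefSeq annotation of GRCm38.p6, the build also named mm10 that the study used, Sox9 spans chr11:112782210-112787757, Wt1 chr2:105126529-105173614, Gata4 chr14:63198914-63271712, Sox8 chr17:25565893-25570686 and Fshr chr17:88984952-89200675. Gata1 (chrX:7959260-7976663), Rhox5 (chrX:37754608-37808878) and Nr0b1 (chrX:86191775-86195947) are on the X chromosome. Wt1os, an antisense RNA on the other strand, starts beside the start of Wt1, with 18 bases between them. The annotations also place 2810468N07Rik at Sox8, on the other strand, and the lncRNA genes Gm39488 and Gm52419 over Gata1, none of them analysed here, so reads of Sox8 and Gata1 may not be separated from theirs.

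Promoter sequences from RefSeq, the 250 bases before the annotated start, were used for 5 of the 8 genes. Those of Sox9, Wt1 and Gata4 were not analysed here. Those of Fshr, Sox8 and Nr0b1 are shown, because they span the RNA ratios found below (Fshr the lowest in soma_CKO relative to Sertoli, Sox8 little different, Nr0b1 the highest) and because their starts differ by at most 11 bases between RefSeq and GENCODE. Capitals mark matches on either strand to CCAAT (the NF-Y box), GATAA (bound by GATA factors), ACAAT (a core of SOX sites) and CACGTG (an E box, its own reverse complement).
Fshr, chr17:89200676-89200925, minus strand: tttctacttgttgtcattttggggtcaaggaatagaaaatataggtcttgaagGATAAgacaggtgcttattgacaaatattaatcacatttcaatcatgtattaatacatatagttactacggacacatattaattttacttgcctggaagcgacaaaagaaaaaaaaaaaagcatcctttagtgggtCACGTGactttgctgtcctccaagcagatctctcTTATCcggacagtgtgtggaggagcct
Sox8, chr17:25570687-25570936, minus strand: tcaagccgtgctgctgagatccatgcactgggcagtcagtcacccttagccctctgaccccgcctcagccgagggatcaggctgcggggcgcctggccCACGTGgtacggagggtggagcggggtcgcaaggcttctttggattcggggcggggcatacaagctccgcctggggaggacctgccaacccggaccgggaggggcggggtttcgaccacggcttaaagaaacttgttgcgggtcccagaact
Nr0b1, chrX:86191525-86191774, plus strand: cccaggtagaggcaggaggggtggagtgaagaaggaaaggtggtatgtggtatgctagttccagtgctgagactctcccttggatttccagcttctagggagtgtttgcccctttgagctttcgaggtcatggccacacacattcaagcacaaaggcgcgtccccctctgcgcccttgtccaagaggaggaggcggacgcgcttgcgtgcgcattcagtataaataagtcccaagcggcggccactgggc
The Fshr window held GATAA 2 times, at 197 bases before the start and, as TTATC on the other strand, at 27, and CACGTG at 61. The Sox8 window held CACGTG at 152, and the Nr0b1 window none of the 4. Of 32851 promoter windows of this length, 33.8% held CCAAT, 22.6% GATAA, 27.7% ACAAT and 6.02% CACGTG. The Gata1 window held none of the 4, but its start in the promoter table lies 10161 bases from the GENCODE start, inside the span of the gene given above. The Rhox5 window held CCAAT 3 times (2 of the matches overlap) and ACAAT 1 time, but its RefSeq start lies 50234 bases from the GENCODE start of the gene. A match describes the letters and does not show binding, and no match says nothing of the factor.

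RNA of each of the 8 genes was highest in Sertoli or in soma_CKO. Of the 8 genes, 6 (Sox9, Sox8, Wt1, Gata1, Gata4 and Fshr) had their highest value in Sertoli, and the other two, Rhox5 and Nr0b1, in soma_CKO. Over all genes with a mean of at least 0.05 UMIs per 10000, 10.5% were highest in Sertoli. The genes were chosen as Sertoli genes, so their rank there is a description and no independent check of the population's name. In the 9 germ cell populations outside SpG Nfya-CKO, all 8 genes were highest in elongating spermatids (ES), as were 15.0% of all genes. Values are UMIs per 10000 of a population, averaged over its cells, and the same gene is compared between populations.

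**Figure D2:**
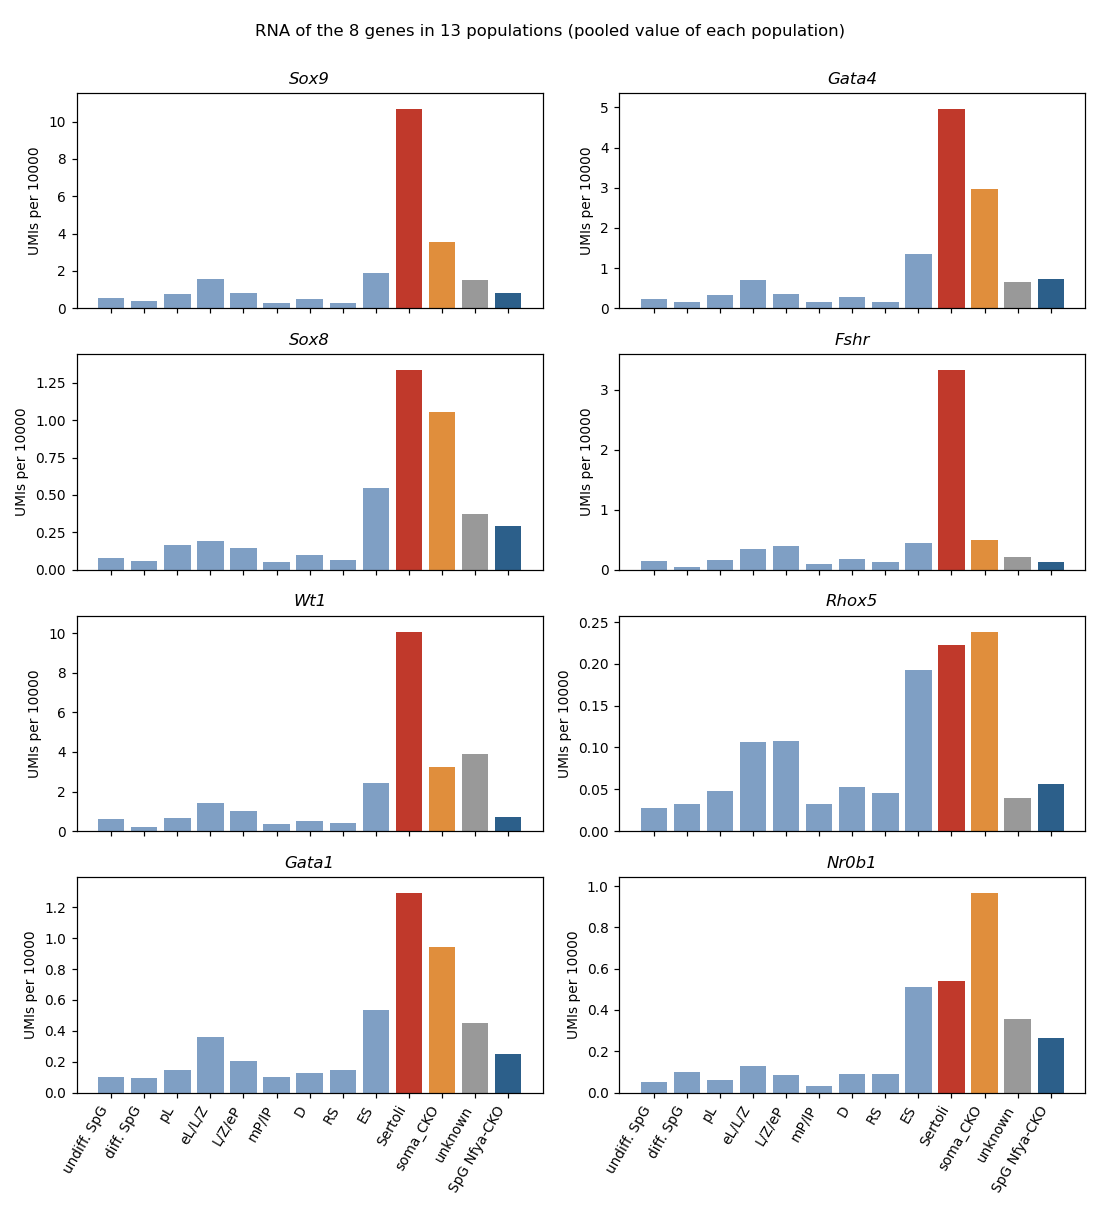
RNA level of each of the 8 genes (y axis, UMIs per 10000, own linear scale from 0 for each gene) in the 13 populations (x axis), one bar per pooled population value with no error bar. Sertoli bars are highest for 6 genes, soma_CKO bars for Rhox5 and Nr0b1, and among germ cells from undiff. SpG to ES the ES bar is the highest for all 8.

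Sox9 stood at 10.7 UMIs per 10000 in Sertoli, 3.54 in soma_CKO and 1.5 in the unknown population. In the 9 germ cell populations it ranged from 0.285 in mid to late pachytene spermatocytes (mP/lP) through a median of 0.531 to 1.90 in ES. Sertoli was 20.1-fold above that germ cell median and 3.02-fold above the next population, soma_CKO. Sox8 stood at 1.34 in Sertoli and 1.05 in soma_CKO, with 0.372 in the unknown cells, and in germ cells it ranged from 0.0487 in mP/lP to 0.549 in ES. Its lead in Sertoli over soma_CKO was 1.27-fold, so the SOX pair shared a highest population and differed in how far the second one lay below.

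Wt1 stood at 10.1 in Sertoli, 3.24 in soma_CKO and 3.89 in the unknown population, which was second in order. Its germ cell values ran from 0.231 in differentiating spermatogonia (diff. SpG) to 2.45 in ES, and Sertoli was 16.8-fold above their median. The unknown population held 99 cells, and all 5 endothelial markers were highest in it, with a sum of 24.4. In the same population the other Sertoli markers summed to 58.7 and the Leydig markers to 26.2. Wt1os, which lies beside Wt1, had the RNA pattern most like that of Wt1 (Pearson r = 0.993 of log values over 13 populations). Whether counting used strand is not given in the sources used here, so reads of the pair near their starts may not be separated.

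Gata4 stood at 4.97 in Sertoli, 2.97 in soma_CKO, 0.665 in the unknown cells and 0.158 (round spermatids, RS) to 1.34 (ES) in germ cells. Gata1 stood at 1.29 in Sertoli, 0.942 in soma_CKO, 0.454 in the unknown cells and 0.0959 (diff. SpG) to 0.533 (ES) in germ cells. The Sertoli value of Gata4 was 17.1-fold the germ cell median and that of Gata1 8.94-fold. Gata1 is known in the testis to follow the stage of the tubule, and the pooled values do not resolve stages.

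Fshr was the most Sertoli-restricted of the 8. It stood at 3.33 in Sertoli, 0.494 in soma_CKO, 0.210 in the unknown cells and 0.0409 (diff. SpG) to 0.452 (ES) in germ cells. Sertoli was 6.73-fold above the next population, the largest such lead among the 8 genes, and 21.6-fold above the germ cell median. ES stood at 91.4% of the soma_CKO value, a higher percent than for the other seven genes.

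Rhox5 and Nr0b1 had other orders. Rhox5 stood at 0.222 in Sertoli, 0.239 in soma_CKO and 0.193 in ES, and at 0.0278 (undiff. SpG) to 0.108 in the remaining germ cells, so Sertoli, soma_CKO and ES lay close together and the others below them. In the unknown cells it was at 0.0390, where 1 UMI in a cell of median depth is worth 0.0213. Nr0b1 stood at 0.539 in Sertoli, 0.966 in soma_CKO, 0.511 in ES and 0.355 in the unknown cells, and at 0.0306 (mP/lP) to 0.131 in the remaining germ cells. Its Sertoli value was 6.13-fold the germ cell median, and that of Rhox5 4.6-fold.

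The high values in ES were set beside its library and markers. Of the 1195 ES cells, 1190 (99.6%) were from the Cre/+ library, with a median of 2562 UMIs per cell in ES. The summed level of the 8 genes was 7.93 in ES, against 1.13 in diff. SpG and 1.36 in RS, in which Cre/+ cells were also the most numerous (84.5% and 77.0%). In the ATAC table, 20 of 124 ES cells (16.1%, exact 95% interval 10.1 to 23.8) bore the Sertoli name by accessibility. The other Sertoli markers summed to 75.4 in ES and to between 7.48 and 36.6 in the other 8 germ cell populations. The 8 genes in ES were at 45.3% to 91.4% of their soma_CKO values (median 55.1%), while the 6 Leydig markers in ES were at 2.15% to 21.6% (median 3.02%). Over all 9845 genes with at least 0.2 UMIs per 10000 in soma_CKO the median in ES was 83.9%, and 45.3% of them lay within the range of the 8 genes. The part that RNA from neighbouring cells or free RNA has in these values was not tested.

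Against Sertoli, RNA of Sox9, Wt1 and Fshr was lower in soma_CKO by at least 2-fold, and none of the 8 was higher by as much. Fshr was at 14.9% of its Sertoli level (log2 ratio -2.53), Wt1 at 32.1% (-1.61) and Sox9 at 33.1% (-1.57). Here and below, log2 ratios are of the value plus 0.1 UMIs per 10000, which understates changes of low genes. Of the 13697 genes compared, 6.80% were lower by at least 2-fold and 17.8% higher. The ratio of Fshr was below that of nearly all genes, with 0.139% of them lower still, and those of Wt1 and Sox9 had 1.66% and 1.83% of genes below them. All 8 passed the filter on low values. With the median of all genes set to 0 the same 3 of the 8 were past 2-fold, and the split over all genes was 9.67% lower and 14.2% higher. The 3 genes encode the hormone receptor and a pair of identity factors.

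The other five lay within 2-fold. Gata4 was at 59.7% of its Sertoli level (log2 ratio -0.73), Gata1 at 72.9% (-0.42) and Sox8 at 78.9% (-0.31). Rhox5 was at 107% (0.07), which is below the median gene by 0.09 once the median of all genes is set to 0. Nr0b1 was 1.79-fold higher in soma_CKO (0.74). The median log2 ratio was -0.57 over the 8 genes and 0.16 over all genes compared. Of the SOX pair, Sox9 was lower by at least 2-fold and Sox8 was not, while both GATA genes lay within 2-fold and below Sertoli.

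**Figure D3:**
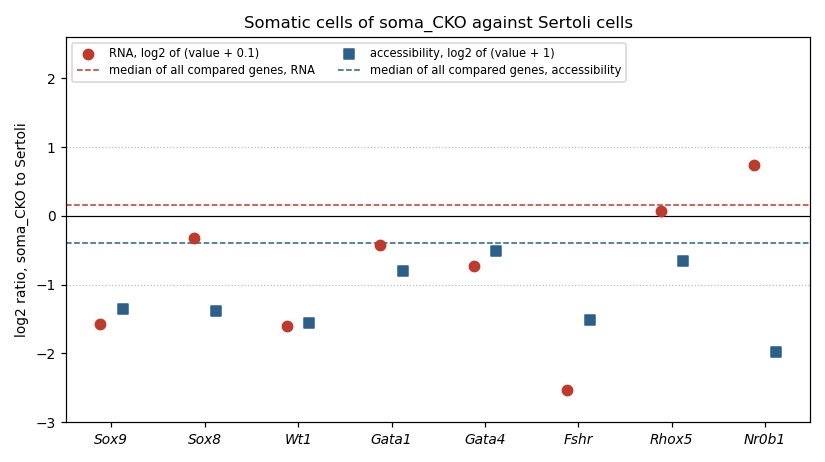
Log2 ratio of soma_CKO to Sertoli for each of the 8 genes, by RNA (value plus 0.1 UMIs per 10000) and by accessibility (value plus 1 signal per 1000000), one point per gene and assay, with a line at 0, dotted lines at 2-fold and a dashed line at the median of all genes for each assay. By RNA the points run from -2.53 for Fshr to 0.74 for Nr0b1, and by accessibility all 8 lie below 0, from -0.50 for Gata4 to -1.99 for Nr0b1.

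Other Sertoli genes stood on both sides. Of the other 18 Sertoli markers, 9 were lower in soma_CKO by at least 2-fold, 4 were higher and 5 lay between (median log2 ratio -0.80). Aard went from 24.8 UMIs per 10000 in Sertoli to 4.83 in soma_CKO, Dhh, the hedgehog ligand of Sertoli cells, from 2.89 to 0.761, and Shbg from 1.66 to 0.493. Ptgds, a prostaglandin D synthase, went the other way, from 0.0815 to 52.3, and Tsx from 0.215 to 1.72. The summed level of this list was thus led by a few genes that were higher in soma_CKO, Ptgds among them, while most of its members were lower. Amh, the Müllerian inhibiting hormone of immature Sertoli cells, was at 0.927 in Sertoli and 0.0321 in soma_CKO.

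Other regulators of the gonad moved in both directions. Of the 15 compared, 3 were lower and 5 higher by at least 2-fold (median -0.34). The SOX genes Sox4 (9.03 in Sertoli to 1.52 in soma_CKO) and Sox12 (3.46 to 0.533) were among the lower ones. Nr2f2, an orphan nuclear receptor of interstitial cells, was higher (0.0840 to 1.98), as were Gadd45g (0.119 to 1.35) and the immediate early gene Nr4a1 (0.370 to 1.27). Of the Gata, Sox and Rhox relatives, 8 of 27 could be compared: 3 were lower and 1 higher by at least 2-fold. Gata6 went from 2.20 to 0.414, Sox6 from 2.33 to 0.777 and Sox3 from 0.757 to 0.303. Gata6 and Gata4, a pair that both act in the testis soma, therefore stood at different distances from their Sertoli levels.

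Among 17 other hormone and growth factor receptors, 2 were lower and 4 higher by at least 2-fold (median -0.25). The thyroid hormone receptor Thra went from 4.17 to 1.17. The prolactin receptor Prlr was higher in soma_CKO (0.0593 to 3.31). Amhr2, the receptor of anti-Müllerian hormone, stood at 5.03 and 10.1, just within 2-fold on the log2 scale used (0.99). Prlr and the luteinizing hormone receptor Lhcgr (0.00252 to 0.457) are known in Leydig cells, whose markers were higher in the same population. Of 16 genes that act downstream of FSHR, 3 were lower and 2 higher by at least 2-fold, with a median of 0.19, near that of all genes. The lower ones were Prkar2b, a regulatory subunit of protein kinase A (2.26 to 0.795), and the cyclic AMP phosphodiesterases Pde4b (0.845 to 0.324) and Pde4d (5.05 to 2.36). Gnas, the G protein subunit that couples FSHR to adenylyl cyclase, was at 14.8 in Sertoli and 9.32 in soma_CKO, within 2-fold. The higher ones were Fhl2 (0.0318 to 1.26), a LIM domain cofactor, and Inhba (0.00996 to 0.152), the activin A subunit, both named after their values were seen.

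Measured against the germ cell median, accessibility of the 8 genes was less restricted to Sertoli than their RNA. The lead of Sertoli over the next population was not smaller for every gene (Sox8 1.46-fold by accessibility, 1.27-fold by RNA). Values are ATAC signal per 1000000 assigned to a gene, and the study's methods define promoter accessibility as coverage around the start site, but whether the deposited table used that window is not given in the sources used here. Again 6 of the 8 were highest in Sertoli, against 5.65% of all genes with a mean of at least 1; Fshr was highest in SpG Nfya-CKO and Rhox5 in RS. The germ cells before meiosis had high values for several genes. Sox9 stood at 62.9 in Sertoli, 37.6 in undiff. SpG, 39.1 in preleptotene spermatocytes (pL) and 6.71 in mP/lP. Sox8 stood at 44.5, 30.4, 30.1 and 6.08 in the same 4 populations, and Wt1 at 65.6, 45.5, 50.05 and 8.23. These 3 genes thus had accessibility in undiff. SpG at 59.7% to 69.4% of the Sertoli level, and RNA there at 4.96% to 5.95% of it.

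Gata4 was lower in undiff. SpG relative to Sertoli (22.5%), as were Gata1 (17.7%) and Rhox5 (32.3%). It stood at 25.0 in Sertoli, 17.3 in soma_CKO and 2.45 to 8.19 elsewhere. Its RNA and accessibility had the highest correlation over the 13 populations (r = 0.92, log values), followed by Sox9 (0.67), Sox8 (0.45), Wt1 (0.40), Gata1 (0.33), Fshr (0.29), Nr0b1 (0.06) and Rhox5 (0.04). These are descriptions over 13 points that share libraries. Nr0b1 was accessible in Sertoli (17.6), SpG Nfya-CKO (16.2) and undiff. SpG (14.7), and lay between 3.71 and 7.90 in the other populations. Fshr stood at 14.4 in SpG Nfya-CKO, 11.5 in Sertoli, 9.96 in undiff. SpG and 2.88 to 7.47 elsewhere. Gata1 was low throughout, with 7.32 in Sertoli and 5.24 in mP/lP, and it was listed at 0 in ES and the unknown cells, whose values rest on 106 and 31 cells. Rhox5 reached 3.18 in RS and 1.73 in Sertoli, was listed at 0 in the unknown cells and is close to the limit of what this scale shows.

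**Figure D4:**
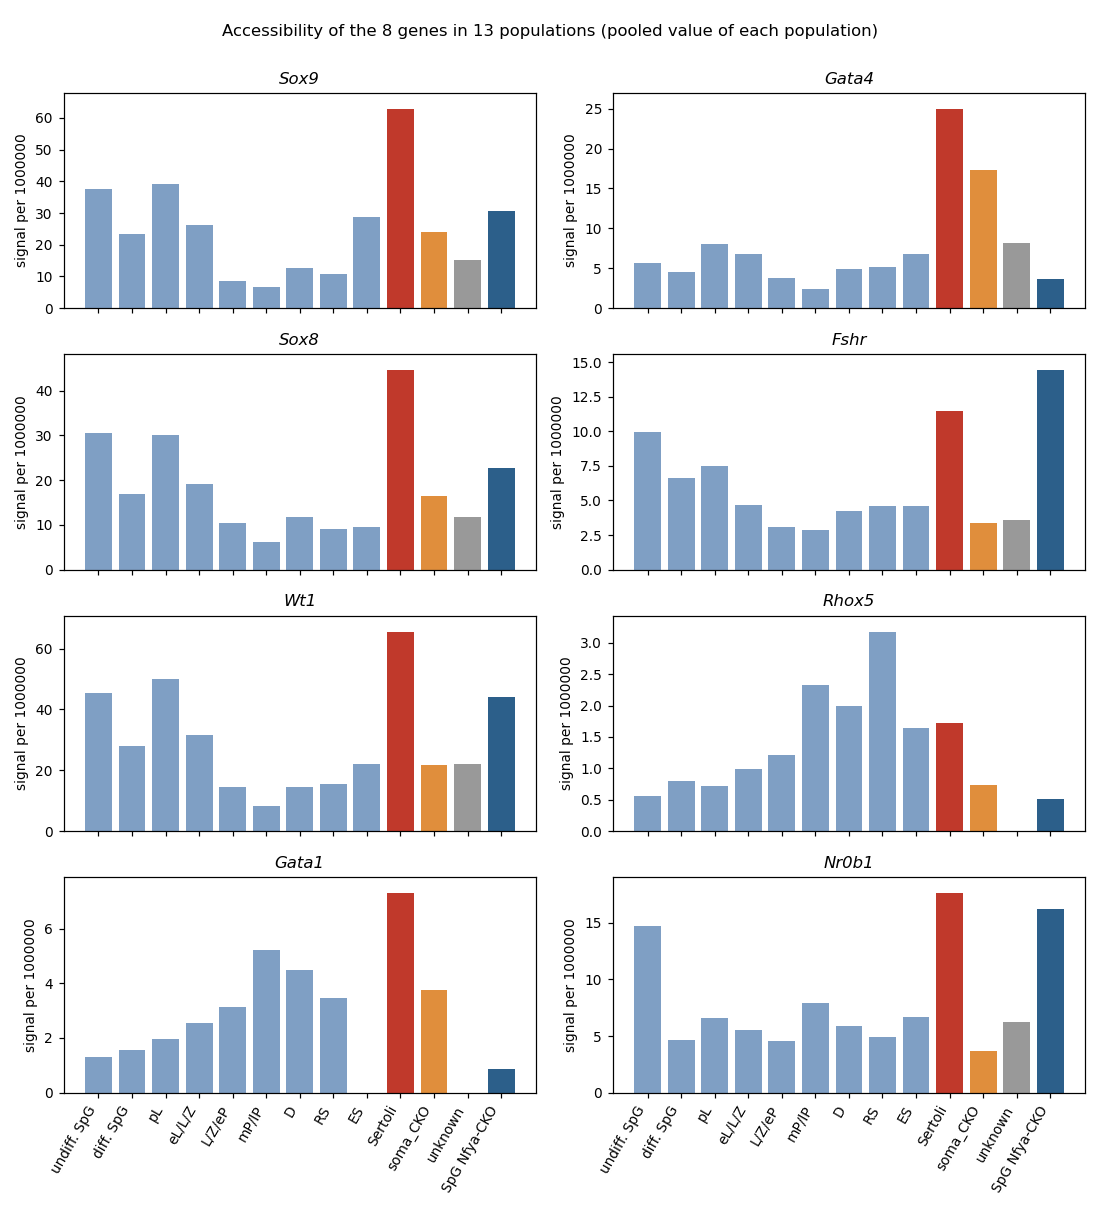
Accessibility of each of the 8 genes (y axis, ATAC signal per 1000000, own linear scale from 0 for each gene) in the 13 populations (x axis), one bar per pooled population value with no error bar. Sertoli bars are highest for 6 genes, undiff. SpG and pL bars come next for Sox9, Sox8 and Wt1, and Rhox5 is highest in RS. The scale includes mitochondrial signal, whose share differs between populations.

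From Sertoli to soma_CKO, accessibility of all 8 genes was lower, and 5 of the 8 were lower by at least 2-fold, against 5.68% of the 23177 genes compared. Nr0b1 went from 17.6 to 3.71 (21.0%, log2 ratio -1.99 of the value plus 1), Wt1 from 65.6 to 21.6 (32.9%, -1.56) and Fshr from 11.5 to 3.36 (29.2%, -1.52). Sox8 went from 44.5 to 16.5 (36.9%, -1.38) and Sox9 from 62.9 to 23.9 (38.0%, -1.36). Gata1 (51.5%), Rhox5 (42.7%, -0.65) and Gata4 (69.3%) were lower by less than 2-fold on this scale. The median was -1.37 over the 8 genes and -0.39 over all genes, so a shift of all genes is part of these ratios. Mitochondrial genes took 51.0% of the signal in Sertoli and 64.5% in soma_CKO. With them left out, or with the median of all genes set to 0, 3 of the 8 (Wt1, Fshr and Nr0b1) were lower by at least 2-fold, and all 8 stayed below 0. That scaling also turned the split over all genes from 5.68% lower and 2.41% higher to 2.13% lower and 8.74% higher with mitochondrial genes left out, and to 1.83% and 6.25% with the median at 0.

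RNA and accessibility went apart for Nr0b1, which had more RNA in soma_CKO than in Sertoli (1.79-fold) and the lowest accessibility ratio of the 8 (21.0%). With the median of all genes set to 0 in each assay, Nr0b1 stood at 0.58 by RNA and -1.60 by accessibility in log2 ratio. On the same scale Sox8 stood at -0.47 and -0.99, Sox9 at -1.73 and -0.97 and Wt1 at -1.77 and -1.17. The soma_CKO values of the assays rest on different cells, 5883 for RNA and 1316 for accessibility. The latter number follows from the values and is below the 1942 soma_CKO cells of the ATAC cell table, as it is for SpG Nfya-CKO (285 against 470), and which cells the accessibility values cover is unknown. Of the other 18 Sertoli markers, 15 were lower in accessibility by at least 2-fold, while among 16 genes downstream of FSHR 0 were lower and 1 was higher. The summed accessibility of those Sertoli markers was 663 in Sertoli and 230 in soma_CKO, and that of the 6 Leydig markers 44.7 and 36.1. Of these 6, 4 were higher in soma_CKO (median log2 ratio 0.47), Insl3 from 3.03 to 9.48, and Star was lower, from 33.1 to 15.7. Of 19 other regulators 2 were lower and 2 higher by at least 2-fold (median -0.54), with Dmrt1, which keeps Sertoli cells male, from 32.2 to 11.4 and Nr2f2 from 3.99 to 13.03. Of 24 Gata, Sox and Rhox relatives 4 were lower and 0 higher by at least 2-fold, Gata6 (61.9 to 25.6) and Sox6 (47.1 to 15.0) among the lower ones. The median of the 24 was -0.39, that of all genes. The median transcription start site enrichment score was 13.7 in Sertoli and 9.25 in soma_CKO, and its part in the ratios was not tested.

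SpG Nfya-CKO, 491 cells all from the library labelled Nfya-CKO, were then set against undiff. SpG. Of 1292 undiff. SpG, 102 (7.89%) came from the 8-week Cre/+ library and nearly all others from the juvenile wild-type libraries (646, 262 and 280 cells in order of age), so age and genotype cannot be told apart here either. In RNA, Sox8 (0.0773 to 0.290 UMIs per 10000), Gata4 (0.226 to 0.734) and Nr0b1 (0.0499 to 0.262) were higher by at least 2-fold, with log2 ratios of 1.14, 1.35 and 1.27, and 0 of the 8 were with 1 UMI per 10000 added in place of 0.1. Of the 13954 genes compared, 4.76% were higher by as much. Gata1 (0.101 to 0.25) and Sox9 (0.531 to 0.820) were higher by less than 2-fold on the log2 scale used, Wt1 (0.6 to 0.7) and Fshr (0.137 to 0.123) differed little, and Rhox5 (0.0278 to 0.0565) did not reach the mean of 0.05 required, so 7 of the 8 were compared. No accessibility value of the 8 differed by 2-fold, against 2.24% of the 26422 genes compared, and 7 of the 8 passed that filter. The median start site enrichment score was 12.5 in undiff. SpG and 7.82 in SpG Nfya-CKO, and its part was not tested. Gata4 went from 5.62 to 3.61, Sox8 from 30.4 to 22.7 and Nr0b1 from 14.7 to 16.2, so the genes with more RNA did not have a matching gain in accessibility.

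Markers of somatic cells were set beside these values. The 6 Leydig markers summed to 0.212 in undiff. SpG and 51.0 in SpG Nfya-CKO, and 6 of 6 were higher by at least 2-fold. Insl3, a hormone of Leydig cells, went from 0.0640 to 39.8. Of 17 other Sertoli markers compared, 8 were higher and 0 lower by at least 2-fold, with Clu from 2.50 to 22.8 and Ptgds from 0.0458 to 11.8. By at least 2-fold, 2 of 4 endothelial, 1 of 4 stromal, 0 of 4 macrophage and 0 of 2 peritubular markers compared were higher. The endothelial sum was 0.371 in undiff. SpG and 1.47 in SpG Nfya-CKO, and the macrophage sum 0.168 and 0.514. The stromal sum was 3.33 in undiff. SpG and 2.001 in SpG Nfya-CKO, with Col1a1 at 3.03 and 1.51. Of 14 other receptors compared, 3 were higher by at least 2-fold, Amhr2 (0.402 to 2.21) and Prlr (0.0168 to 0.521) among them. In that list 1 was lower by as much, and the median log2 ratio was -0.10. Of 15 other regulators of the gonad, 2 were higher and 4 lower by at least 2-fold (median -0.29). Of 13 genes downstream of FSHR 0 differed by 2-fold. The median cell held 18361 UMIs in SpG Nfya-CKO and 9290 in undiff. SpG.

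The 8 genes stood at nearly the same fraction of their soma_CKO level in SpG Nfya-CKO. The percentages were 21.6 for Wt1, 23.1 for Sox9, 23.7 for Rhox5, 24.7 for Gata4, 24.9 for Fshr, 26.5 for Gata1, 27.1 for Nr0b1 and 27.5 for Sox8, with a median of 24.8. Of 9845 genes with at least 0.2 UMIs per 10000 in soma_CKO, 3.88% fell within this range. The 17 other Sertoli markers with a value had a median of 23.5 (17.7 to 45.5) and the 6 Leydig markers 22.6 (16.3 to 24.6), against a median of 101 and quartiles of 53.3 and 158 over all genes. Peritubular (3.08 to 7.54), stromal (1.25 to 19.5) and spermatid markers (0.292 to 12.3) lay below the range of the 8 genes, macrophage (29.8 to 42.2) and spermatogonia markers (156 to 643) above it, and endothelial ones (19.8 to 105) on both sides. Each of the 8 genes thus stood in SpG Nfya-CKO at a like fraction of its soma_CKO level, and the part of free or neighbouring RNA in this was not tested.

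**Figure D5:**
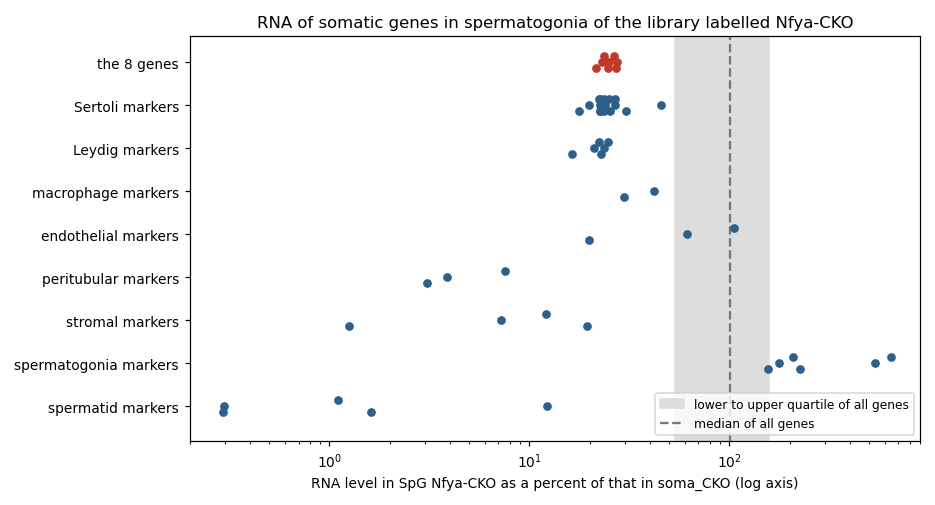
RNA level in SpG Nfya-CKO as a percent of that in soma_CKO (x axis, log scale) for the 8 genes and for marker lists of testis cell types, one point per gene, with the quartile range and median of all genes shown as a band and a dashed line. The 8 genes lie between 21.6% and 27.5%, near the Sertoli and Leydig markers, and spermatogonia markers lie above 100%.

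The mix of the 8 genes, each as a share of their summed RNA, was likewise close between these populations. To turn the mix of SpG Nfya-CKO into that of soma_CKO, 3.50 percentage points would have to move from some genes to others, and into that of Sertoli 23.5. For undiff. SpG the order was the reverse, 7.41 points from Sertoli and 18.3 from soma_CKO. For pL the values were 7.56 and 14.6, and for ES 13.7 and 9.51. Of the 9 germ cell populations outside SpG Nfya-CKO, 7 were nearer to Sertoli in this measure, and 2 (diff. SpG and ES) to soma_CKO. Cells of the Cre/+ library made up 84.5% of diff. SpG and 99.6% of ES, and also 77.0% of RS, which was nearer to Sertoli in this measure. By the largest gap of any single gene, RS was nearer to soma_CKO (10.5 percentage points, against 11.04 from Sertoli). The same held for diplotene spermatocytes (6.26 against 6.78).

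Genes with the most similar RNA pattern were sought among 7012 genes that reach 1 UMI per 10000 in some population, by Pearson r of the log values over the 13 populations. Fshr was nearest to Olfr1033 (0.990), Gata6 (0.988) and Rgs17 (0.988). Sox9 was nearest to Gca (0.997), Wfdc10 (0.996) and Sema6c (0.994), Sox8 to Rhou (0.991), Tmem114 (0.990) and Serpina5 (0.988), and Wt1 after Wt1os to Adgrg1 (0.989) and Nfia (0.988). Gata4 was nearest to the receptor kinase gene Axl (0.994), Mmd2 (0.992) and Ttyh1 (0.992), and Gata1 to Slc25a45 (0.993), Sept6 (0.991) and the cystatin gene Cst12 (0.991). Nr0b1 was nearest to Scara3 (0.987), Gstm7 (0.984) and Nr5a1 (0.984), the last of which encodes the nuclear receptor SF1 and stood at 1.46 in Sertoli and 3.10 in soma_CKO. For Rhox5 the values were lower, with L3mbtl4 (0.95), Fyb2 (0.948) and Btnl10 (0.940). Between the 8 genes themselves r ran from 0.52 (Fshr with Nr0b1) to 0.99 (Sox8 with Gata4). All of these are descriptions over 13 populations that share libraries, and the high Sertoli and soma_CKO values weigh most in them.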

How the data were processed

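Single-nucleus libraries were made by the authors with the BD Rhapsody system. For RNA, mRNA was captured on beads by poly(T) oligos and reverse transcribed, and random primers served a later extension step. The submitters' processing notes name STAR 2.7.10b, BWA 0.7.12, bedtools 2.27.1, Seurat 5.2.1, ArchR 1.0.3 and build mm10. The deposited gene tables hold, per population, the natural log of 1 plus the mean over cells of counts scaled to 10000 per cell, pooled over libraries by the authors. The deposited cell tables hold UMI counts, a mitochondrial percent and, for ATAC, fragment counts, a score of start site enrichment and ratios per cell. Values were returned to the linear scale (accessibility rescaled to 1000000) with Python 3.11.15, pandas 2.3.3 and numpy 2.4.6, and intervals of shares used scipy 1.17.1. Whole reads could not be recovered from averages over cells, so no count model was run.

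A gene was compared at a mean of at least 0.05 (RNA) or 1 (accessibility), with 0.1 or 1 added before the log2 ratio, and called at 2-fold by size. The log2 ratio step was run on values multiplied by known factors, which checks its arithmetic only. The other steps had no such check. All 8 genes are named, at most 5 genes of each other list (those with the largest ratio at a mean of at least 0.2; Lhcgr, Amh, Gnas, Fhl2, Inhba and Col1a1 were added after their values were seen) and 3 similar genes each. The genes and lists were chosen with earlier results of these data known. Doublets were treated by the authors before deposit, and 19 other columns were not used. No sequence of Sox9, Wt1 or Gata4 was used here, and 1 gene of the receptor list, included in its counts, is not reported here by its own values.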

Additional observations from a re-analysis of the deposited data

How the results depend on the processing

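Single-gene log2 ratios of the 8 genes were recomputed under 200 combinations of gene and setting. In 178 the ratio moved by less than 1.5-fold, and in 12 of all 200 it changed sign, 2 of them ratios past 2-fold (Sox9 and Fshr). With the unknown population in place of Sertoli as the reference for soma_CKO, 5 signs changed: Sox9 then stood at 1.18, Fshr at 0.94, Gata4 at 2.004, Sox8 at 1.29 and Gata1 at 0.91 in log2 RNA ratio, 0 genes were lower and 5 higher by at least 2-fold, and the median was 1.21. That population holds RNA of several cell types, with sums of 24.4 for endothelial, 58.7 for the other Sertoli and 26.2 for Leydig markers. With a pseudocount of 1, 0 of the 8 were higher by at least 2-fold in RNA of SpG Nfya-CKO. With diff. SpG as the reference, 2 were higher by at least 2-fold in accessibility and 4 signs changed in both assays together. In accessibility of soma_CKO, 3 were lower by at least 2-fold both with mitochondrial genes left out and with the median of all genes at 0. Among cells with at least 1000 genes, 69.0% of soma_CKO came from the library labelled Nfya-CKO. No paired analysis was possible because each condition is 1 library, and no library could be left out of values pooled over libraries. The share of all genes past 2-fold moved by over 1.5 times with pseudocount and filter: for RNA of soma_CKO, a pseudocount of 1 gave 1.45% lower and 1.53% higher, and a mean of at least 0.5 gave 14.0% and 10.9%. For RNA of SpG Nfya-CKO a pseudocount of 0.01 gave 11.2% higher, and for accessibility of soma_CKO one of 10 gave 0.729% lower. Of the 24 similar genes, 4 were also found by Spearman's rho and 7 without SpG Nfya-CKO and the unknown population. The error between mice is unknown.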
